A study of Mus musculus with 47 samples.

Results

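H3K27me3, the trimethylation of lysine 27 of histone H3, was examined at the places where E1/E2-KO mouse liver carried it and control liver did not. Merging the H3K27me3 regions that had been called in E1/E2-KO livers of either sex, on the autosomes, gave 15839 regions. Of these, 731 overlapped a region of both E1/E2-KO lists and, by 1 bp, no region of either control list. These 731 are the new H3K27me3 regions described here. They were selected on the calls in the 4 H3K27me3 lists, so the absence of H3K27me3 calls in control liver and the presence of calls in E1/E2-KO liver restate the selection and are not findings. They make up 4.62% of the merged regions.

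Livers came from male and female mice of 7 weeks. E1/E2-KO mice were Ezh1-/- in all cells and carried floxed Ezh2 alleles with the Alb-Cre transgene (Ezh1-/-, Ezh2 f/f, AC+), whose albumin promoter drives Cre in hepatocytes, so that Ezh2 stays intact in the other cell types of the liver. The controls were littermates that the labels give as floxed only (Ezh2 f/f). H3K27me3, H3K27ac and H3K4me1 were each measured by chromatin immunoprecipitation and sequencing in 4 livers per sex and genotype, with 3 in the H3K4me1 list of E1/E2-KO females. The reads of a group were pooled before regions were called, so each mark and group has 1 list, and no liver-to-liver error, test between genotypes or effect of leaving out a liver could be had. Shares carry 95% intervals by the Wilson method. These reflect counting error alone and treat neighbouring regions as independent.

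The lists held 14554 to 17188 autosomal H3K27me3 regions, 28862 to 55055 autosomal H3K27ac peaks and 50922 to 68838 autosomal H3K4me1 peaks, and they give no height and no read depth. List lengths differed between groups for H3K27ac in particular, with 28862 peaks for control males and 55055 for E1/E2-KO males. The tissue label was checked against marker genes. Of 7 hepatocyte marker genes, the H3K27ac lists of control male and control female liver marked the start of 4 and 6, while H3K27me3 covered the start of none in the control lists, 2 in the E1/E2-KO male list and 1 in the E1/E2-KO female list. The starts of all 4 endothelial markers were in H3K27me3 in both control lists and 2 of them in each E1/E2-KO list, and the starts of all 4 stellate cell markers were in H3K27me3 in every list. Of the starts of all 21418 protein-coding autosomal genes, 36.0% (males) and 33.8% (females) lay in H3K27me3 in the control lists, and 40.7% (males) and 32.6% (females) in the E1/E2-KO lists. In whole liver, fewer cells of a type and less of a mark per cell cannot be told apart. Histone marks say nothing of the deleted exons, so the knockouts themselves could not be checked here.

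H3K27me3 is deposited by Polycomb repressive complex 2, whose catalytic subunit is Ezh2 or Ezh1, and it covers broad domains over silent developmental genes. H3K27ac sits on active promoters and enhancers and uses the same lysine, so a given histone tail cannot carry both. H3K4me1 marks active, primed and poised enhancers. In hepatocytes, active enhancers and promoters lie near genes for plasma proteins, apolipoproteins, bile acid transport and glucose production, which are driven by the liver factors HNF1, HNF4, FOXA and C/EBP.

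Among the genes whose start lay in a new region were several of this kind. The bases upstream of 7 of them are shown because they hold a short stretch matching the HNF1 or C/EBP letters and because 5 of the 7 had an H3K27ac peak at this place in control liver. Each stretch is the 200 bases before the annotated start in mm9, 5′ to 3′ on the strand of the gene, and capitals mark matches on either strand to GTTAATNAT (HNF1), TTGCNNAA (C/EBP) or TATAAA, the core of the promoter box of that name.
Fga (chr3:82829875-82830074, plus strand): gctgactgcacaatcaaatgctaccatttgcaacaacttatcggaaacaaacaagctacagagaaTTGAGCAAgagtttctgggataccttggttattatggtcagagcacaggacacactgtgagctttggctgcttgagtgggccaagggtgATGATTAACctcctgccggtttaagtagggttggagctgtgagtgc
Fgb (chr3:82853726-82853925, minus strand): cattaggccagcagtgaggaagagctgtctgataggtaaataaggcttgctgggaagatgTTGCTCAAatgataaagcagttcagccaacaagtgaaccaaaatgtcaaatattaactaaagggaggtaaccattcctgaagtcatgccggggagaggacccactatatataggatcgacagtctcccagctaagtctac
Afp (chr5:90919540-90919739, plus strand): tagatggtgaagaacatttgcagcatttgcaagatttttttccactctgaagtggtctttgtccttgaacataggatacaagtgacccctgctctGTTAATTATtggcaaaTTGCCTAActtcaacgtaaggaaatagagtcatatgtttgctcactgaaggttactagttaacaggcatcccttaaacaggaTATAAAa
Saa4 (chr7:53987914-53988113, minus strand): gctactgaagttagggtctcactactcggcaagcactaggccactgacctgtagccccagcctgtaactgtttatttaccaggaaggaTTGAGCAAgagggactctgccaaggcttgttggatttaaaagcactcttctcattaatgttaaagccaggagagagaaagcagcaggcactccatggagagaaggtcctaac
Apoa4 (chr9:46048579-46048778, plus strand): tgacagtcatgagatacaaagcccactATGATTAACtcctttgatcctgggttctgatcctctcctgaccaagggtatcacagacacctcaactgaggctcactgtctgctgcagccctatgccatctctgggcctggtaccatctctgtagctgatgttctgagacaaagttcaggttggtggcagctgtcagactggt
G6pc (chr11:101228675-101228874, plus strand): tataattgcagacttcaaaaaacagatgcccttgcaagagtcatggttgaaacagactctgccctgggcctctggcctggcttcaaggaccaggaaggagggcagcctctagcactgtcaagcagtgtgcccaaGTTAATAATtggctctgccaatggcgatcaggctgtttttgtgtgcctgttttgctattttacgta
Cyp4f14 (chr17:33054024-33054223, minus strand): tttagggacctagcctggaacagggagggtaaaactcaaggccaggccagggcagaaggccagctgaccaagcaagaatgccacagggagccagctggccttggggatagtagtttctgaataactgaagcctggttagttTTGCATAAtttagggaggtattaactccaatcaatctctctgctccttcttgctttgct

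Fga and Fgb encode chains of fibrinogen, Afp the fetal albumin-like protein, Saa4 a constitutive serum amyloid A, Apoa4 an apolipoprotein, G6pc the catalytic subunit of glucose-6-phosphatase and Cyp4f14 a fatty acid hydroxylase. Fga, Saa4, Apoa4, G6pc and Cyp4f14 had an H3K27ac peak within 1 kb of the start in each of the 4 H3K27ac lists. At Fgb only the E1/E2-KO female list had such a peak, and at Afp none had. The 200 bases before the start held a median of 9 CpG dinucleotides for all 323 genes with a start in a new region and of 7 for all protein-coding genes. Among promoters with control H3K27ac at the start the order was reversed, with 11 for the 245 in new regions and 13 for all 11124. Over these 323 genes, the HNF1 letters occurred in 5 promoters (1.55%), against 0.556% of 21418 promoters of protein-coding autosomal genes. The C/EBP letters occurred in 8.98% against 7.20%, the HNF4 letters AAAGTCCA in 1.24% against 0.878%, the FOXA letters TGTTTAC in 2.79% against 2.12%, and TATAAA in 8.36% against 10.1%. Among promoters with control H3K27ac at the start, TATAAA occurred in 5.31% of the 245 in new regions and 4.63% of all 11124, while the other 4 shares were again the higher in new regions. With 4 and 5 matches for HNF4 and HNF1, these shares rest on few promoters, and a match is not a binding site. The promoters outside new regions also include starts in control H3K27me3, which the rule could not pick, so they are no like comparison.

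The new regions were broad, as were H3K27me3 regions of the E1/E2-KO lists at large. The new regions spanned 26.2 Mb together, 1.09% of the autosomal sequence, and their median width was 31.6 kb, with the middle 50% between 24.0 and 43.6 kb. All merged regions had a median of 34.4 kb, and the E1/E2-KO male and female lists medians of 31600 and 30800 bp. The narrowest was 2.4 kb and the widest 184.8 kb, and 9 were wider than 100 kb. For comparison, 9421 merged regions overlapped both E1/E2-KO lists and also a control region (kept regions), with a median width of 51.2 kb. A wider region is more likely to touch a control region and so be called kept, so this gap in width is partly set by the rule. Another 1271 merged control regions, present in both control lists, had no E1/E2-KO region on them (lost regions), with a median width of 24.4 kb. New regions were thus 7.20% of the regions seen in both E1/E2-KO lists, and lost regions 10.7% of those seen in both control lists. A further 1502 regions without a control region were in the E1/E2-KO male list only and 709 in the E1/E2-KO female list only.

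The 2 E1/E2-KO lists covered the new regions unequally. In 684 of the 731, 1 male and 1 female region met. The male list held 86.8% of their bases, the female list 72.5%, and 59.3% were in both. In 587 regions (80.3%) each list covered at least 50% of the width. The plot of coverage shows many regions that the male list covered whole while the female list covered a part.

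**Figure D1:**
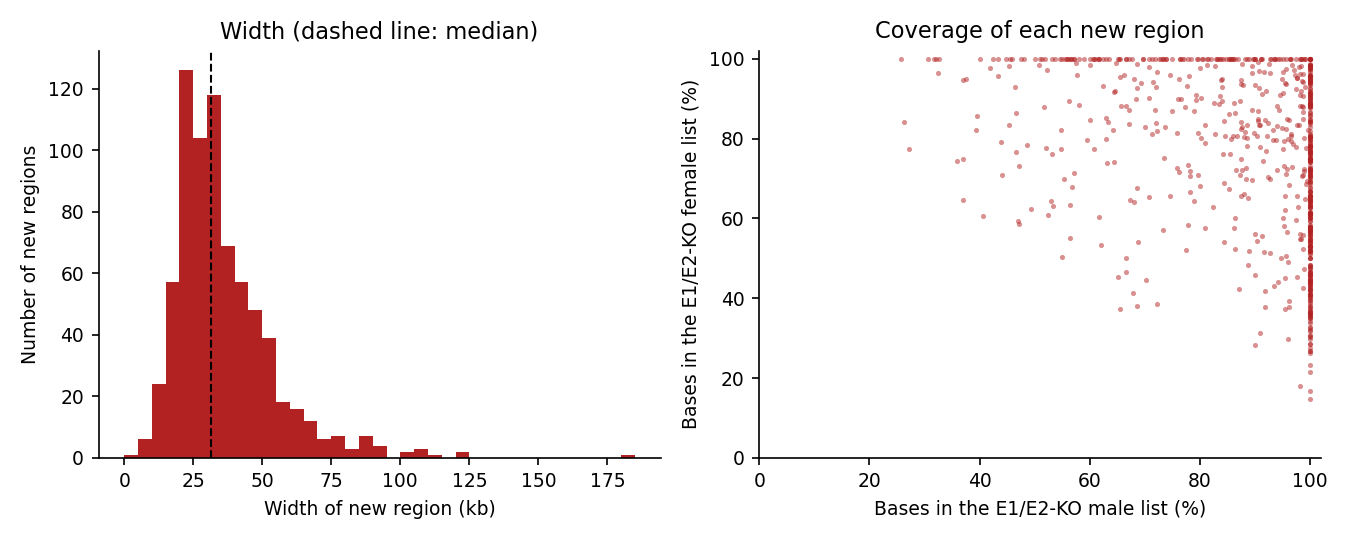
Left, number of new H3K27me3 regions by width in bins of 5 kb, with the median of 31.6 kb as a dashed line. Right, percent of the bases of each of the 731 regions in the E1/E2-KO male list (horizontal) and in the E1/E2-KO female list (vertical), 1 point per region; many points lie at 100% on the male axis.

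By the selection, all lay outside control H3K27me3. The nearest control region was a median of 28.4 kb away, 179 new regions (24.5%) had a control region within 10 kb, and 111 (15.2%) had none within 100 kb. At the edge of the rule, 5 new regions lay 400 bp from a control region, among them chr3:152991601-153053200 in St6galnac3, chr6:17049601-17105600, of which 11.1% lies in Tes, and chr10:96685201-96710800, which overlaps no protein-coding gene. On the other side, the merged regions with the smallest control overlap were chr11:117818401-117845600 with 400 bp, and chr7:57678401-57706000 and chr8:14868801-14902400 with 800 bp each. Only 15 kept regions had under 10% of their width in a control region. The farthest from any control region were chr2:41110001-41146000 inside Lrp1b (1346 kb away), chr10:17256401-17291200 (599 kb) and chr6:45970801-46005600 inside Cntnap2 (595 kb). Lrp1b and Cntnap2 are very long neuronal genes, and those regions held no peak in any of the 8 H3K27ac and H3K4me1 lists. The region on chromosome 10, between genes, held 1 or 2 H3K27ac peaks in every list.

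New regions occurred on every autosome. The X chromosome was left out by the rule, and the E1/E2-KO male list holds only 33 regions there. New regions made up 2.32% of the merged regions of chromosome 19 (11 regions) and 6.0% of those of chromosome 18 (39 regions), the extremes of the range. Their base composition lay between those of kept and lost regions. Median GC content was 43.1% in new, 43.9% in kept and 41.3% in lost regions, and the median ratio of observed to expected CpG was 0.191, 0.202 and 0.171. Exons of protein-coding genes made up 3.47% of their bases, introns 41.9% and intergenic sequence 54.6%, against 3.09%, 36.6% and 60.4% of the autosomes.

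Next, it was asked whether control liver had active or enhancer marks in these regions. H3K27ac was present in many. In control male liver, 321 of 731 new regions (43.9%, 95% interval 40.4 to 47.5%) held at least 1 H3K27ac peak, where 27.9% of all 15839 merged E1/E2-KO regions and 32.0% of kept regions (31.0 to 32.9%) did. In control female liver it was 363 (49.7%, 46.0 to 53.3%), where 37.9% of all merged and 43.5% of kept regions (42.5 to 44.5%) did. For H3K4me1 the shares lay below those of kept regions, and the share of all merged regions was within the interval in males and just under it in females. A control male H3K4me1 peak lay in 392 new regions (53.6%, 50 to 57.2%), where 51.0% of all merged and 60.6% of kept regions (59.7 to 61.6%) had one. A control female H3K4me1 peak lay in 370 (50.6%, 47.0 to 54.2%), where 46.9% of all merged and 56.3% of kept regions (55.3 to 57.3%) had one. Kept regions overlap control H3K27me3 by definition, and only 2942 of all merged regions overlap no control region. H3K27ac and H3K27me3 use the same lysine, so the rule may itself raise the control H3K27ac share of new regions. How far it does was not tested, so neither set is a like comparison, here or below. Regions without control H3K27me3 in only 1 E1/E2-KO list were not compared. The excess of H3K27ac over kept regions depended on the control lists. With the female control list alone removing regions, 31.6% of 1299 new regions and 33.0% of kept regions held a control male H3K27ac peak, and 36.6% and 45.1% a control female peak, while the H3K4me1 shares of new regions (42.4% and 38.9%) fell below those of all merged regions.

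New regions are narrower than kept ones, so regions of like width were compared. Between regions of 20 to 40 kb, 39.4% of 421 new regions (34.9 to 44.2%) and 23.8% of 2871 kept regions (22.2 to 25.3%) held a control male H3K27ac peak. For the control female list the shares were 44.4% (39.7 to 49.2%) and 31.8% (30.1 to 33.5%). For H3K4me1 they were closer, at 49.2% and 47.1% in control male and 45.8% and 42.9% in control female liver, with overlapping intervals.

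Peaks per Mb were compared next. Control male liver had 30.7 H3K27ac peaks per Mb in new regions, 9.45 in kept, 8.31 in lost and 13.4 outside all H3K27me3 regions. Control female liver had 51.7, 17.8, 20.2 and 21.0 in the same order. Thus new regions were denser in H3K27ac than chromatin that carried no H3K27me3 in any list. With the female control list alone, density in new regions was 19.8 (males) and 33.8 (females), and in kept regions 9.52 and 18. H3K4me1 was denser too, with 56.0 peaks per Mb in new regions, 29.0 in kept, 34.0 in lost and 27.8 outside in control male liver, and 42.1, 23.9, 28.3 and 21.3 in control female liver.

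**Figure D2:**
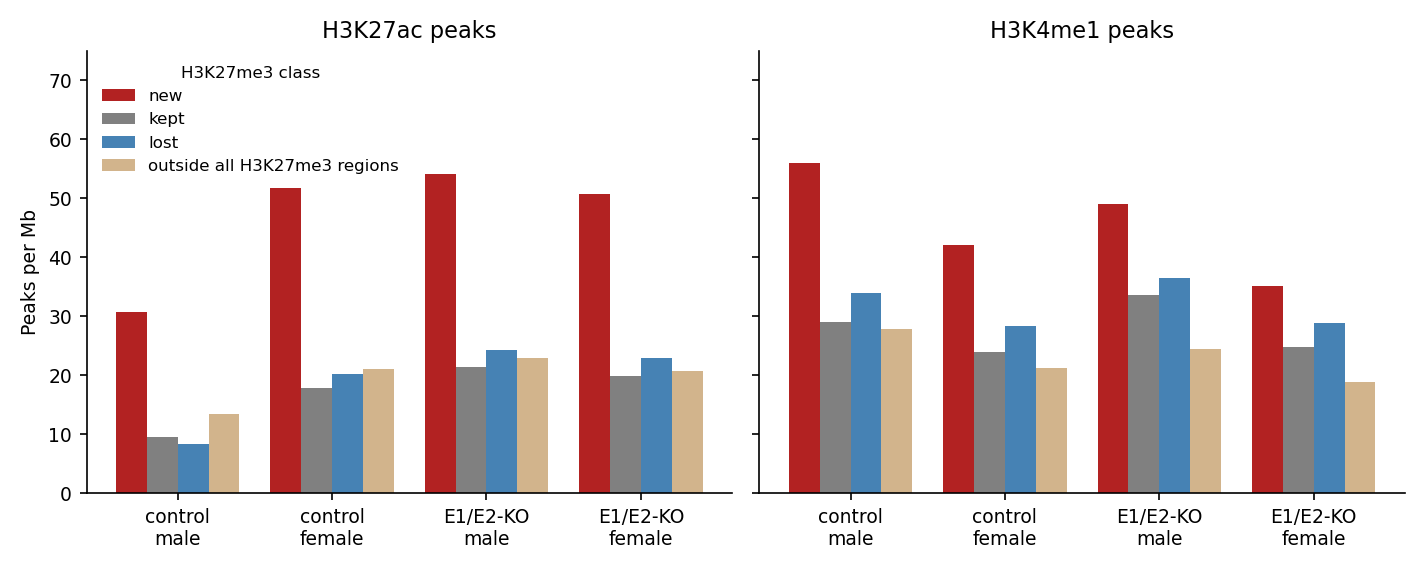
H3K27ac (left) and H3K4me1 (right) peaks per Mb, on the vertical axis, in the 4 lists of each mark, for new, kept and lost H3K27me3 regions and for sequence outside all H3K27me3 regions. In every list the bar for new regions is the highest, for example 30.7 against 9.45 in kept regions for control male H3K27ac. Each bar is 1 pooled list, without error.

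The control peaks in new regions were then looked up in E1/E2-KO liver of the same sex. Of 803 control male H3K27ac peaks in new regions, 742 overlapped a peak of the E1/E2-KO male list (92.4%, 90.4 to 94.0%), where 90.3% of all autosomal control male peaks did. Of 1355 control female peaks, 988 were kept (72.9%, 70.5 to 75.2%), against 72.0% of all. The shares in new regions were thus close to those of all peaks. In E1/E2-KO liver, 49.5% of new regions in males and 48.6% in females held an H3K27ac peak, at 54.2 and 50.7 peaks per Mb. In males, new regions held 803 control and 1419 knockout H3K27ac peaks, and kept regions 6405 and 14548. In females the counts were 1355 and 1328 in new regions, and 12090 and 13501 in kept regions. The control male and E1/E2-KO male lists differ in length. With each H3K27ac list reduced to its 28862 widest peaks, density in new regions was 30.7 and 31.6 for control males and females and 30.3 and 29.8 for knockout males and females. Density in kept regions was 9.45 and 10.0 for controls and 10.9 and 11.2 for knockouts. On these lists, 44.5% and 43.2% of new and 36.8% and 36.9% of kept regions held a knockout male or female peak. Of control peaks in new regions, 77.0% (males) and 75.7% (females) were kept, against 75.4% and 75.6% of all.

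For H3K4me1, the share of peaks kept in new regions lay below that of kept regions in both sexes, and below that of all peaks by more than its interval in females. Of 1467 control male peaks, 984 were kept (67.1%, 64.6 to 69.4%), where 68.6% of all autosomal peaks, 75.3% of those in kept regions and 64.7% of those outside all H3K27me3 were. Of 1104 control female peaks, 621 were kept (56.2%, 53.3 to 59.2%), where 63.1% of all, 67.0% of those in kept regions and 60.7% of those outside all H3K27me3 were. The share outside H3K27me3 thus lay inside the interval of new regions in males and above it in females. With each list reduced to its 50922 widest peaks, 65.2% of male (62.3 to 68.0%) and 58.5% of female peaks (55.5 to 61.5%) in new regions were kept, against 68.9% and 64.9% of all, so that both intervals lay below. On the same lists, H3K4me1 density in new regions was 41.2 for control and 36.3 for knockout males, and 39.6 for control and 35.1 for knockout females. In kept regions it was 21.7 and 26.3 in males and 22.6 and 24.8 in females. H3K4me1 density was thus lower with the knockouts in new regions and higher in kept regions, in both sexes.

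**Figure D3:**
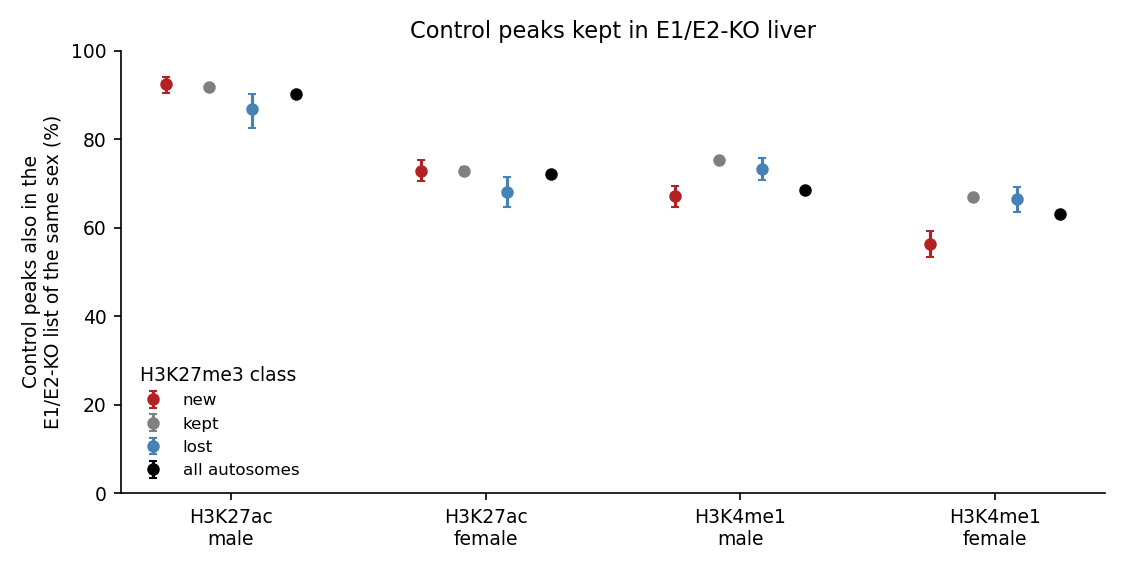
Percent of control peaks that overlapped a peak of the E1/E2-KO list of the same sex (vertical axis), for H3K27ac and H3K4me1 peaks in new, kept and lost H3K27me3 regions and on all autosomes. Points are shares and bars Wilson 95% intervals. H3K27ac in new regions lies beside the share of all autosomal peaks (92.4% against 90.3% in males), and H3K4me1 in females lies lower (56.2% against 63.1%).

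Peaks were also counted by region. Of the 321 new regions with a control male H3K27ac peak, 263 (81.9%) kept every peak in E1/E2-KO male liver, 50 kept some and 8 (2.49%) kept none, where 84.1% of all merged regions with such a peak kept every one and 4.91% none. Of the 363 with a control female peak, 152 (41.9%) kept every peak, 184 some and 27 (7.44%) none, against 51.9% and 12.1% of all merged regions. A region with more peaks is less likely to keep every one, and less likely to keep none. New regions held 30.7 (males) and 51.7 (females) control peaks per Mb, and all merged regions 10.7 and 19.9. The gaps between new and all merged regions thus cannot be read as a difference in retention. At equal numbers of peaks the kept shares of peaks were close (77.0% in males and 75.7% in females). Regions were not recounted on those lists, and the cause of the gap between the sexes was not tested. For H3K4me1, 29 of 392 regions in males (7.40%) and 75 of 370 in females (20.3%) kept no control peak, against 10.3% and 15.0% of all merged regions. In 312 regions (42.7%) H3K27ac was present in all 4 lists, where 26.4% of all merged and 30.4% of kept regions had it. In 277 (37.9%) both H3K27ac and H3K4me1 were present in all 4 lists, against 23.8% of all merged and 28.3% of kept regions. Of the 366 regions with H3K27ac in a control list, 14 (3.83%) lacked it in both E1/E2-KO lists, against 4.63% of all merged regions. Of the 365 without it, 25 (6.85%) had it in an E1/E2-KO list, against 12.3%.

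The new regions were described by their control marks. Called marked here are the 366 regions (50.1%) with a control H3K27ac peak, and quiet the 314 (43.0%) without any control H3K27ac or H3K4me1 peak, where the shares were 38.8% and 44.6% of all merged and 44.5% and 34.8% of kept regions. The remaining 51 had control H3K4me1 only. Marked and quiet regions had similar widths, with medians of 32.4 and 30.8 kb. They differed in sequence and genes. Median GC content was 45.0% in marked and 40.3% in quiet regions, and the CpG ratio 0.231 and 0.155. A protein-coding gene overlapped 289 marked regions (79.0%) and 113 quiet ones (36.0%), and a start lay in 223 marked (60.9%) and 16 quiet regions (5.10%). Marked regions were defined by H3K27ac, which sits on active promoters. Their genes and starts were not compared with those of kept or all merged regions, so this contrast cannot be called particular to new regions. The nearest start was a median of 132 kb from quiet regions. Among the 731, 292 (39.9%) held no peak in any of the 8 lists of activating marks, against 38.6% of all merged and 28.0% of kept regions.

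By the number of control H3K27ac peaks in the male and female lists together, the leading region was chr11:120352001-120405600. It held Slc25a10, the mitochondrial dicarboxylate carrier, Gcgr, the glucagon receptor, and Fam195b. H3K27ac peaks there numbered 10 in control males and 18 in control females, and 15 in knockout males and 13 in knockout females. The second was chr1:193222401-193325200, which overlaps no protein-coding gene and lies 1.48 kb from the start of Ppp2r5a, a regulatory subunit of protein phosphatase 2A. It had 8, 16, 18 and 19 peaks in the same order. The third was the apolipoprotein cluster, chr9:46027601-46080400, with Apoa1, the main protein of high-density lipoprotein, Apoc3, an inhibitor of lipoprotein lipase, Apoa4, Apoa5 and the end of Sik3. Its H3K27ac peaks numbered 8, 14, 14 and 12, and its H3K4me1 peaks 7, 4, 4 and 4. The next were chr13:40934001-41055600 in Gcnt2, an enzyme of branched glycans, with 6, 14, 18 and 14 H3K27ac peaks, and chr8:114195201-114285200 over Ctrb1 and Bcar1 with 7, 13, 15 and 17.

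**Figure D4:**
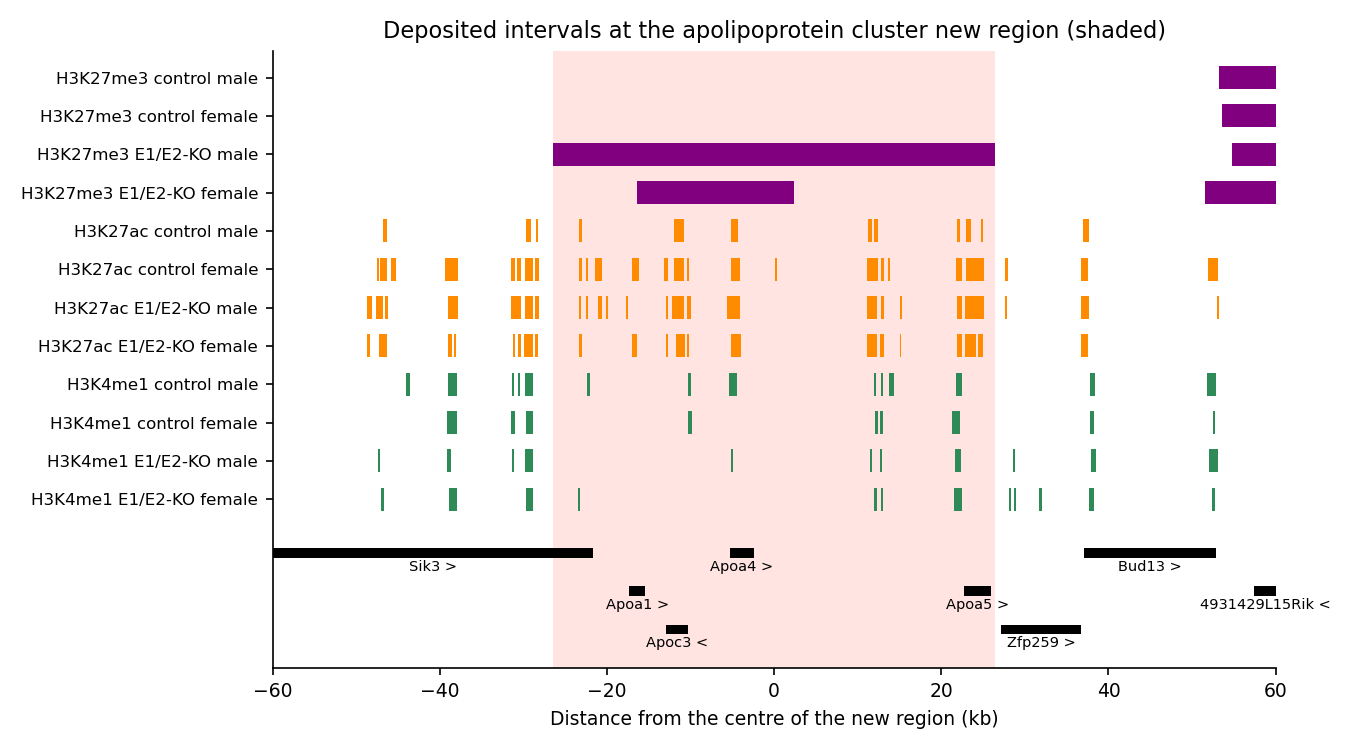
Deposited intervals of the 12 lists and protein-coding genes around the apolipoprotein cluster, by distance in kb from the centre of the new region (horizontal axis), which is shaded and 52.8 kb wide. The E1/E2-KO male list covers it whole, the E1/E2-KO female list covers 35.6%, neither control H3K27me3 list enters it, and H3K27ac peaks stand in it in all 4 lists. An arrowhead after a gene name gives its direction.

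The widest region, chr10:19826001-20010800 (184.8 kb), covered Mtap7, a microtubule-associated protein, and part of the stress kinase gene Map3k5. It held 6 H3K27ac peaks in control males and 13 in control females, and 13 in knockout males and 10 in knockout females. The other regions among the 10 widest were 93.2 to 121.6 kb wide. They overlapped Gcnt2, Lrig1, Myo5b, Bcar3, Gabbr2, the pair Ing3 and A430107O13Rik, and the pair Hsf5 and Rnf43, while 2 overlapped no protein-coding gene. Lrig1 is an inhibitor of ErbB receptor signalling, Rnf43 a ubiquitin ligase that dampens Wnt signalling and Myo5b a motor of apical membrane traffic. Of the 2 without a gene, 1 was the region beside Ppp2r5a and the other was chr16:24117601-24226800, 129 kb from the start of Bcl6, a repressor that binds many STAT5 sites in liver. It had 5, 9, 12 and 10 H3K27ac peaks. All 10 widest regions held H3K27ac in each of the 4 lists.

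New regions overlapped 546 of 21418 protein-coding autosomal genes (2.55%), held the outermost annotated start of 323 (1.51%) and covered at least 50% of the span of 212 (0.990%), of which 133 lay wholly inside. Of the 731 regions, 428 overlapped a gene and 303 did not. By bases, 54.6% of new, 58.8% of kept and 62.7% of lost regions were intergenic, against 60.4% of the autosomes. Among the 323 genes with a start inside, 245 (75.9%, 70.9 to 80.2%) had a control H3K27ac peak within 1 kb of the start in at least 1 sex, where 51.9% of all genes had. By sex, 218 had such a peak in control male liver (67.5%, where 45.6% of all genes had) and 243 in control female liver (75.2%, where 51.6% of all had). After the knockouts, 217 of 218 still had a peak there in males and 236 of 243 in females, 99.5% and 97.1%, where the shares over all genes were 99.3% and 96.4%. Among genes with a control H3K27ac peak at the start, 2.20% had the start in a new region, and among the rest 0.758%. The rule removes starts in control H3K27me3, which were 36.0% (males) and 33.8% (females) of all starts. The shares over all genes thus include starts that could not be picked, and they are no like comparison for the control H3K27ac shares.

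The genes were grouped by lists chosen for liver, with earlier results of these data known. New regions overlapped 37 of 411 genes (9.0%) of the 11 hepatocyte lists combined, against 2.55% of all genes. They overlapped 0 of 67 genes of 5 lists for endothelial, Kupffer, stellate, cholangiocyte and lymphoid cells, with an upper Wilson limit of 5.42%, and 1 of 78 ribosomal protein genes, Rpl31. The starts of 67 of the 78 ribosomal protein genes had control H3K27ac, and 1 of the 78 starts was in a new region. The starts of 55 of the 67 genes of the other cell types were already in H3K27me3 in control male liver, where 36.0% of all starts were. Since the rule removes regions that touch control H3K27me3, it could hardly find these genes, and the 0 of 67 is no contrast with the hepatocyte lists. The starts of all 40 Hox genes were likewise in H3K27me3 in all 4 lists. The same limit bears on the hepatocyte lists. Of their 411 starts, 10.5% were in control male H3K27me3, against 36.0% of all starts. The 2.55% of all genes thus includes more genes that the rule could hardly find, and it is no like comparison for the 9.0%. The single lists below are set beside the same background, with the same limit. Their intervals also count genes that share a region as independent.

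Of 16 glucose metabolism genes, 5 were overlapped (31.2%). G6pc and Fbp1, enzymes of the late steps of gluconeogenesis, and Gcgr lay wholly inside new regions. The G6pc region, chr11:101222001-101262800, was 40.8 kb wide, and both E1/E2-KO lists covered the whole gene. Fbp1 was covered whole by the male list and to 24.0% by the female list. Gckr, the inhibitor of glucokinase, was covered to 59.4% with its start, and Khk, ketohexokinase, to 33.2% without it. G6pc, Fbp1, Gcgr, Gckr and Khk each had H3K27ac at the start in all 4 lists.

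Of 25 hepatocyte transcription factor genes, 6 were overlapped (24.0%). Foxa3 and Nr0b2, the corepressor SHP of bile acid feedback, lay wholly inside. Both E1/E2-KO lists covered all of Foxa3 and of Nr0b2, and H3K27ac was at both starts in all 4 lists. Prox1 was covered to 50.2%, Nr5a2 to 35.4% and Ppara, the fatty acid receptor, to 33.9%, each with its start. Hnf4a was covered to 71.2% by chr2:163351601-163406000. Its outermost start lay 19.1 kb outside, but 5 of its 7 annotated transcripts began inside the region. The same region held a core of 1444 bp, chr2:163373054-163374497, that lay in H3K27ac peaks of all 4 lists. Over the whole list and not only the new regions, H3K27me3 covered the starts of 3 (males) and 5 (females) of the 25 genes in the control lists, and of 20 (males) and 13 (females) in the E1/E2-KO lists. Over all genes the share of starts in H3K27me3 went from 36.0% to 40.7% in males and from 33.8% to 32.6% in females. These counts come from the 4 lists that the rule used, for genes chosen with earlier results known. They are thus not findings about new regions. In other lists the male count also rose, as for plasma protein genes (2 to 14 of 48), or fell, as for endothelial genes (17 to 12 of 21).

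Of lipoprotein genes, 5 of 22 (22.7%) were overlapped, of which Apoa1, Apoc3, Apoa4 and Apoa5 share 1 region and are not independent. This count fell to 0 of 22 where each E1/E2-KO list had to cover 50% of a region, and to 0 from the widest 50% of regions in each list. The fifth was Pltp, the phospholipid transfer protein, covered to 35.2%. The E1/E2-KO male list covered all 4 genes of the cluster, while the female list covered Apoc3 and Apoa4 whole, Apoa1 to 50.3% and Apoa5 not at all. Of bile acid genes, 5 of 23 (21.7%) were overlapped. They were Abcc2, an exporter of conjugates into bile, wholly inside a region of 71.2 kb, Nr0b2, Slc27a2, a bile acid and fatty acid CoA ligase, to 97.8%, Klb, the coreceptor of Fgf15, to 93.2%, and the phospholipid exporter Abcb4 to 8.37%. None of the 23 starts was in H3K27me3 in either control list.

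Of complement and coagulation genes, 5 of 33 (15.2%) were overlapped. Fga and Fgb share the region chr3:82822401-82858800, the male list covered both whole, and the female list covered Fgb whole and Fga to 15.5%. Proc, the gene of protein C, lay wholly inside, Cpb2 was covered to 96.3%, and F5 to 72.5% by 2 new regions. Urea cycle and amino acid genes gave 3 of 43 (6.98%, 2.40 to 18.6%), an interval that holds the background. They were Uroc1, the urocanase of histidine breakdown, Cbs, cystathionine beta-synthase, and the glutaminase gene Gls2, each with its start inside and H3K27ac there in all 4 lists.

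Plasma protein genes gave 3 of 48 (6.25%), with an interval reaching down to the background. Alb itself was barely touched, since the region chr5:90905201-90945200 covered 2.73% of its far end, while it covered all of the neighbouring Afp. Alb had H3K27ac at its start in all 4 lists and Afp in none. Of 97 cytochrome P450 genes, 6 (6.19%) were overlapped. The interval of this share held the background with the intersection of the lists (2.22 to 11.5% against 2.90%). With the female control list alone it did too (2.87 to 12.8% against 3.67%). Cyp3a13, Cyp4f14 and Cyp17a1, the steroid 17-hydroxylase, and Cyp1a1, the classic target of the Ah receptor, lay wholly inside. Cyp2w1 did too but had no H3K27ac at its start in any list, and Cyp4f13 was covered to 41.9%. Of 23 female-biased genes 2 were overlapped, Cyp17a1 and the prolactin receptor gene Prlr (12.9% of its span, with the start), and of 21 male-biased genes none, with an upper limit of 15.5%. None of 58 conjugation enzyme genes, 32 genes of fatty acid oxidation and lipid synthesis and 21 major urinary protein genes was overlapped, with upper limits of 6.21%, 10.7% and 15.5%. The latter are near-identical copies in which reads may not place uniquely.

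**Figure D5:**
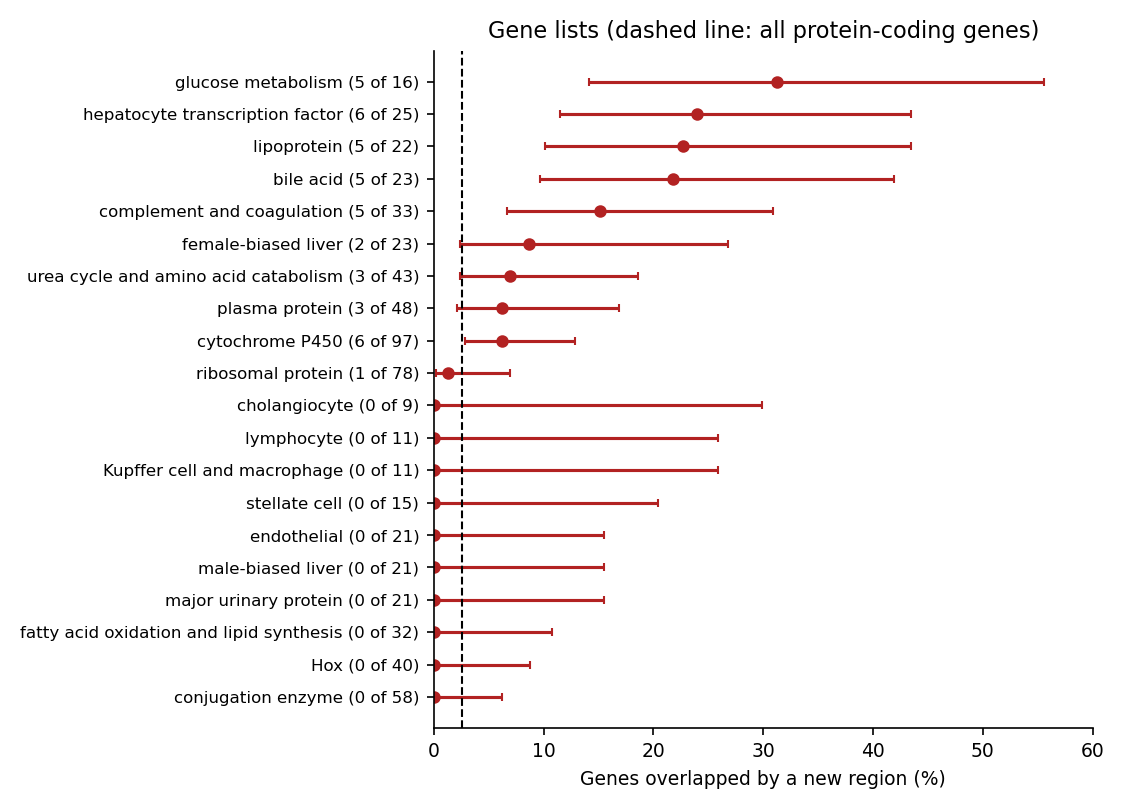
Percent of the genes of each list overlapped by a new region (horizontal axis), with Wilson 95% intervals; the counts stand beside the names. The dashed line is the 2.55% of all protein-coding autosomal genes, which include genes in control H3K27me3 that the rule could hardly find. It is thus no like comparison for the hepatocyte lists, and the intervals count genes that share a region as independent. The glucose metabolism, hepatocyte transcription factor, lipoprotein, bile acid, complement and coagulation and cytochrome P450 lists lie above it with their whole interval, and 10 lists stand at 0. The lipoprotein count is 0 where each E1/E2-KO list must cover 50% of a region. The cytochrome P450 interval holds the background with the intersection of the lists (2.22 to 11.5% against 2.90%). It also does with the female control list alone (2.87 to 12.8% against 3.67%). From the widest 50% of regions, bile acid genes fall to 0 of 23 and cytochrome P450 genes to 1 of 97.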

How the data were processed

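The authors pooled the reads of the livers of a group (50 nt, paired-end), mapped them to mm9 with Bowtie2 2.3.2, and used SICER 1.1 for H3K27me3, with windows of 400 bp and gaps up to 2400 bp, and MACS2 2.1.1 with its defaults for the other marks. They deposited 12 lists of chromosome, start, end and name, without read depth. The records name 47 samples, 1 short of a full design (H3K4me1, E1/E2-KO females).

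Starts were read as counted from 0, and 1 base was added to SICER ends to close the window. Overlaps of 1 bp were counted with Python (3.11.15) and NumPy (2.4.6), and the functions were tested on simulated intervals. Genes, starts and sequences came from GENCODE release M1 and the NCBIM37 genome, which is mm9 and contains every interval. A start is the outermost one annotated. The members and gene lists were chosen with earlier results of these data known. Named genes are, per list, up to 3 with a start inside a new region, by percent covered and then length, to which the other overlapped genes of the leading lists were added after their values were seen. Named regions are the 10 widest, the 5 with most control H3K27ac peaks, and those nearest to and farthest from control regions. Of the 20 lists, 4 symbols matched no gene. The 7 printed promoters were chosen among named genes by their matches. The motif letters were written from general knowledge. Alternatives changed the rule for regions, peaks and genes.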

Additional observations from a re-analysis of the deposited data

How the results depend on the processing

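No paired analysis was possible because each group and mark has 1 pooled list. Of 125 recomputed main values, 79 stayed within their interval, or within 1.5 times for the number of regions, and 46 did not; the cause was not tested beyond what each setting does. The number of new regions was 1217 with the intersection of the lists, 96 from the widest 50% of regions and 1299 with the female control list alone, and the median width 16.8, 52.0 and 33.6 kb, or 29.6 kb where each list had to cover 50%.

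The share of new regions with a control H3K27ac peak (male, female) was 30.2% and 37.3% with the intersection, 55.2% and 60.4% from the widest 50% of regions, 31.6% and 36.6% with the female control list alone, and 33.1% and 42.0% with the widest 50% of peaks. In females it was 43.8% with equal numbers of peaks and 53.8% where a control region within 10 kb removed a region. The H3K27ac shares of kept regions were 17.4% and 28.4% with the intersection, 37.2% and 51.4% from the widest 50% of regions, and 33.0% and 45.1% with the female control list alone. The excess of new regions was absent with the female control list alone, and in control female liver the kept share lay inside the interval of new regions from the widest 50% of regions (50.4 to 69.6%) and with the male control list alone (43.5 to 49.5% against 43.7%). For H3K4me1 (male, female) these shares were 40.3% and 37.3% with the intersection, 66.7% and 65.6% from the widest 50% of regions, 42.4% and 38.9% with the female control list alone, 45.1% and 37.9% with the widest 50% of peaks, and 58.0% and 54.9% with the 10 kb rule. The H3K4me1 shares of kept regions were 60.3% and 55.9% with the 10 kb rule and 70.4% and 66.0% from the widest 50% of regions. In these settings they lay inside the intervals of new regions.

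Where 50% of a control peak had to be overlapped, 89.0% of male and 63.9% of female H3K27ac peaks and 55.4% and 45.0% of H3K4me1 peaks were kept. With peaks within 1 kb merged, 80.0% of female H3K27ac and 72.1% and 60.5% of male and female H3K4me1 peaks were kept. With equal numbers, 77.0% and 75.7% of H3K27ac peaks were kept, and from the widest 50% of regions 69.3% of female H3K27ac and 64.2% of male H3K4me1 peaks.

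The share of all protein-coding genes overlapped was 1.51% by start, 0.990% by 50% of the span, 2.00% with the 10 kb rule, 2.04% where each list covered 50%, 2.90% with the intersection, 0.402% from the widest 50% of regions, and 3.59% and 3.67% with male or female controls alone. For single gene lists, 208 of 220 values stayed within their interval. Of the other 12, 8 came from the widest 50% of regions in lists other than ribosomal protein genes, where the plasma protein, lipoprotein, bile acid and female-biased lists fell to 0, complement and coagulation to 3.03%, cytochrome P450 to 1.03%, urea cycle and amino acid genes to 2.33% and glucose metabolism to 6.25%. Lipoprotein genes also fell to 0 where each list covered 50%, and Rpl31 was lost under 3 settings. The order of the leading lists changed, with hepatocyte transcription factors (20%) above glucose metabolism (18.8%) where each list covered 50%. Leaving ends as deposited changed no count, and including the X chromosome could hardly change any, since the E1/E2-KO male list has 33 regions there. The lists give no heights, so weak and strong regions could not be told apart.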

Other observations

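Besides protein-coding genes, new regions overlapped 33 of 1232 lincRNA genes (2.68%), close to the 2.55% of protein-coding genes, and 14 of 1468 annotated miRNA genes (0.954%). Of the 14, 4 carry a standard miRNA name, Mir551b, Mir692-2b, Mir1942 and Mirlet7b, and mature sequences were matched for Mir551b and Mirlet7b. They are given from RefSeq (GRCm38.p6) with the seed, bases 2 to 8, in capitals, since the 2 precursors lie in new regions of different kinds.
mmu-let-7b-5p: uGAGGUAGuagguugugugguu
mmu-miR-551b-3p: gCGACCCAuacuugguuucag

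Mirlet7b, a precursor of the let-7 family that restrains growth genes, lay at the edge of chr15:85537601-85588400, which also holds the start of Ppara. This region had 2 H3K27ac peaks in control males and 6 in control females, and 12 in knockout males and 8 in knockout females. Mir551b lay in chr3:29312801-29353600, inside Egfem1, where no H3K27ac peak was called in any of the 4 lists. The 78 genes with a start in a new region but no control H3K27ac peak within 1 kb of that start had a median of 2 CpG in the 200 bases before the start. The median was 11 for the 245 with such a peak, 13 for all 11124 genes with such a peak and 7 for all protein-coding genes.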
